A study of Arabidopsis thaliana with 2 samples.

Results

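The genes with 30 or more annotated exons are the most finely divided genes of Arabidopsis thaliana, and 117 of the 33274 annotated genes on chromosomes 1 to 5 belong to them. They were chosen by exon number alone, as the genes with at least 1 annotated transcript of 30 or more exons in the merged transcript set. Their exon number ran from 30 to 79, and all 117 are protein-coding in the reference annotation. They hold 4451 distinct annotated introns, against 128090 in all 22455 genes with 2 or more exons.

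The study made stranded sequencing libraries from the total RNA of siliques, the seed pods, after removal of ribosomal RNA. Both of the 2 labelled libraries are of the Col-0 ecotype with the ago3-3 mutation, which lies in the gene of a small-RNA-binding Argonaute protein, from plants grown on soil in long days and sampled at 1 to 5 DAP (days after pollination). The design also names wild-type Col-0, and the authors deposited 1 merged set of transcript models for the whole series, with no read count and no value per library. The depth is therefore unknown, and so are the libraries that were merged and the genotype a new transcript came from. No difference between genotypes, no replicate spread and no expression level can be given.

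A gene is copied into a precursor RNA in which exons alternate with introns, and the spliceosome cuts out each intron at a donor site at its 5′ end, nearly always GT, and an acceptor site at its 3′ end, nearly always AG. When another donor or acceptor is used, or an exon is passed over, the message changes by a stretch of exon, and when an intron is left in, the intron is read as part of the message. In plants, intron retention and small moves of the acceptor are the common forms of alternative splicing, and a change that is not a multiple of a codon shifts the reading frame. Genes with many exons offer the spliceosome many such choices, and in Arabidopsis they encode large proteins such as myosin motors, callose synthases, DNA polymerases and giant kinases.

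A new isoform here is an assembled transcript that shares at least 1 splice junction with an annotated transcript of the gene and differs from it elsewhere. Of the 117 genes, 83 had at least 1 new isoform, which is 70.9% with an exact (Clopper-Pearson) 95% interval of 61.8 to 79.0, an interval that covers counting over genes and nothing else. The share was 28.3% over all genes with 2 or more exons and 61.7% over genes with 21 to 29 exons. It was 17.6% with 2 to 5 exons, 36.7% with 6 to 10 and 49.0% with 11 to 20, so the share was higher in each class of more exons, and the intervals of the upper pair of classes overlapped. On the near side of the limit, 68.6% of the 51 genes with 30 to 34 exons had a new isoform, and on the far side 61.6% of the 125 genes with 25 to 29 exons. Within the group the share was 73.3% of the 30 genes with 35 to 39 exons, 68.0% of the 25 genes with 40 to 49 and 81.8% of the 11 genes with 50 or more, with overlapping intervals throughout.

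Per intron the order was the other way round. The long genes had 4.54 distinct splicing events inside the gene per 100 annotated introns (202 events), against 6.90 in genes with 2 to 5 exons, 6.15 with 6 to 10, 5.35 with 11 to 20 and 4.95 with 21 to 29. The interval of the long genes, 3.95 to 5.19 over introns, covers the value of genes with 21 to 29 exons. Within the group the rate was 4.92 with 30 to 34 exons, 4.96 with 35 to 39, 3.83 with 40 to 49 and 4.09 with 50 or more. New isoforms per 100 introns were 4.29 in the long genes and 9.83 in genes with 2 to 5 exons. The type of event moved in opposite directions with exon number. Retained introns made 1.24 events per 100 introns in the long genes and 0.563 in genes with 2 to 5 exons, while alternative acceptors made 1.82 and 3.00. A new isoform must share at least 1 splice junction with the annotation. A gene with 2 exons therefore cannot gain one by retaining or changing its only intron. The part of this limit in the values of genes with 2 to 5 exons, including their share of 17.6%, was not tested.

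**Figure D1:**
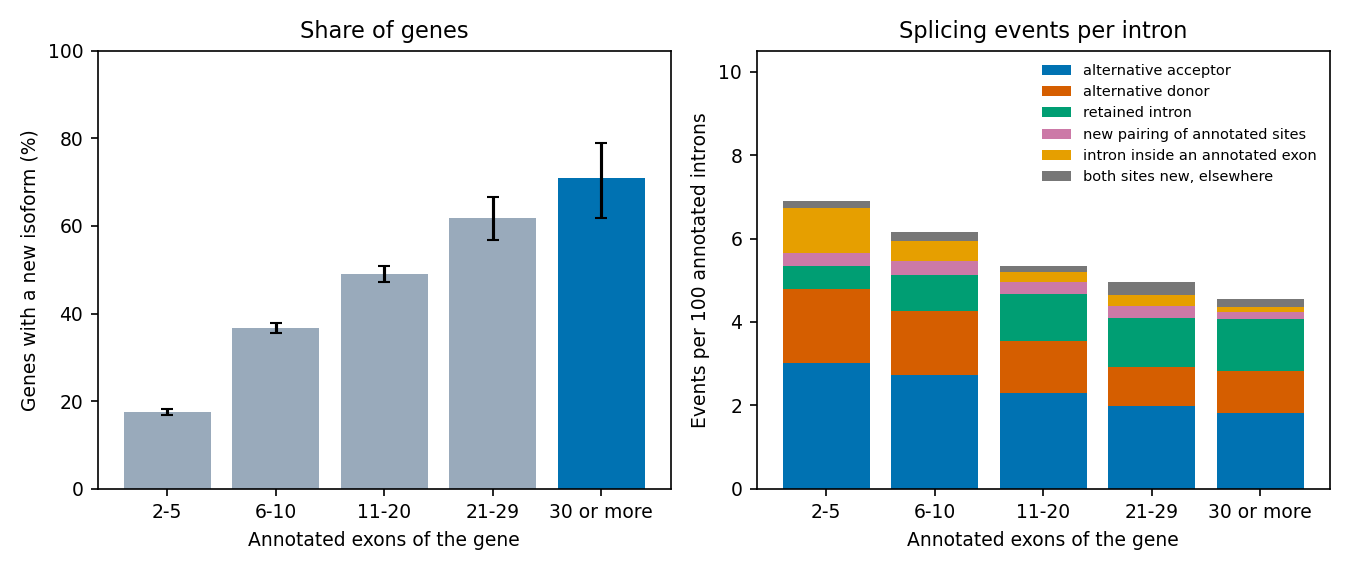
The left panel plots the share of genes with a new isoform in each class of annotated exon number, with exact 95% intervals over genes as bars, and the right panel plots distinct splicing events per 100 annotated introns, stacked by type. The share of genes is highest with 30 or more exons (70.9%). The events per 100 introns are lowest there (4.54, beside 4.95 with 21 to 29 exons), with a larger retained part.

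The 83 genes held 191 new isoforms, a mean of 1.63 over all 117 genes. No new isoform was found in 34 genes, 1 in 33 genes, 2 in 23 and 3 in 12. Of the 117 genes, 27 (23.1%) had 3 or more, against 3.14% of all genes with 2 or more exons, and 10 (8.55%) had 5 or more, against 0.494%. By gene length the shares lay further apart than by exon number. New isoforms were present in 22 of the 39 shortest genes (56.4%, interval 39.6 to 72.2), 27 of the 39 of middle length (69.2%, 52.4 to 83.0) and 34 of the 39 longest (87.2%, 72.6 to 95.7).

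**Figure D2:**
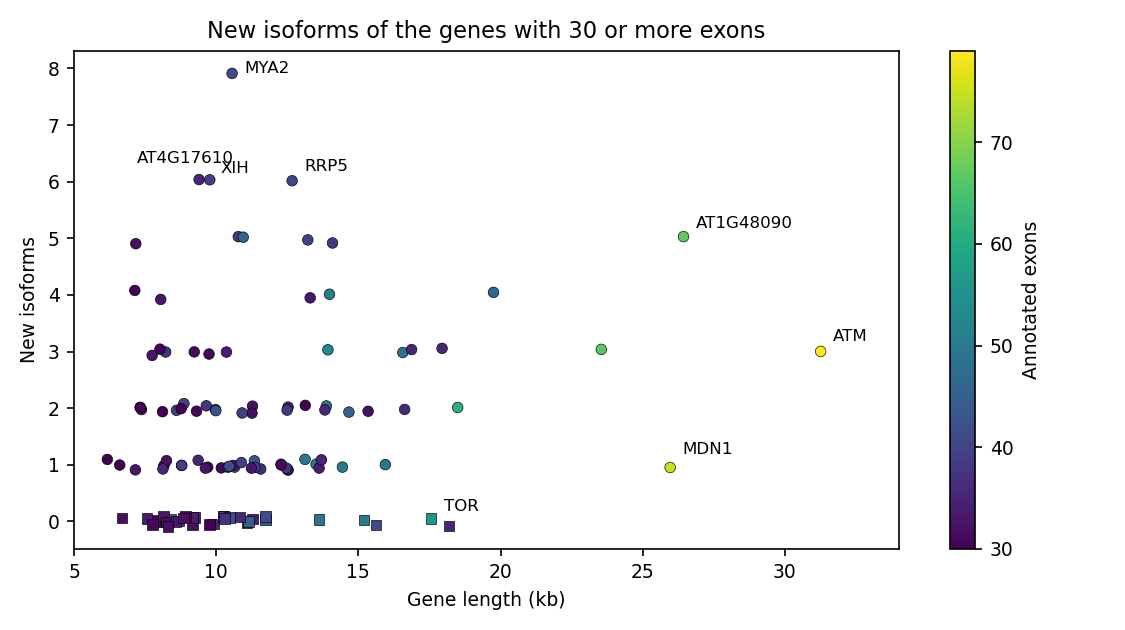
Each point is 1 of the 117 genes, with its length in kilobases on the horizontal axis and its number of new isoforms on the vertical axis (moved slightly up or down so that points can be seen). Circles have new isoforms, squares have none, and the colour gives the exon number. ATM and the midasin gene MDN1, far to the right, have 3 and 1 new isoforms, fewer than the shorter myosin gene MYA2 with 8, all of which also hold introns of the gene upstream.

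The gene with the most exons was ATM (AT3G48190), the kinase that signals broken DNA, with 79 exons over 31258 bp and 3 new isoforms of 79 to 81 exons. MDN1 (AT1G67120), a giant motor protein that strips assembly factors from the young large ribosomal subunit, had 75 exons and 1 new isoform. AT1G48090, a calcium-dependent lipid-binding protein, had 67 exons and 5 new isoforms, and AT4G17140, a protein with a pleckstrin homology domain, had 66 exons and 3. ILA (AT1G64790), a repeat protein that works with a kinase of translation control, had 61 exons and 2 new isoforms. TOR (AT1G50030), the kinase that ties growth to nutrients, had 56 exons and none. MOR1 (AT2G35630), which binds and orders microtubules, had 53 exons and 3, and the armadillo repeat protein AT2G36810 had 51 exons and 4. Among these 8 genes the number of new isoforms therefore did not follow the number of exons.

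The 10 genes with 5 or more new isoforms were led by MYA2 (AT5G43900), a myosin motor that carries cargo along actin, with 8, all of which also hold introns of the neighbouring gene. AT3G11964, which bears the name of the ribosomal RNA processing factor RRP5, AT4G17610, a transfer or ribosomal RNA methyltransferase, and XIH (AT4G28710), another myosin, had 6 each. Without isoforms that hold an intron of a neighbour, MYA2 had 0, XIH 2 and AT1G63770, named next, 4. The others, with 5 each, were AT1G48090, the peptidase AT1G63770, the transporter ABCA1 (AT2G41700), the putative vacuolar sorting protein AT3G50380, the DNA repair gene GMI1 (AT5G24280) and the armadillo repeat protein AT5G27970. In RRP5 the isoforms drew on 5 events in different combinations, of which a 96-nt intron with both sites new and an acceptor moved 45 nt upstream in intron 10 stood in 4 of 6 isoforms each. Short reads do not span a transcript of this length, so which events share a molecule rests on the assembler.

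Most new isoforms were small edits of a long transcript. The median isoform kept 94.6% of the introns of the gene's annotated transcript with the most exons. At least 90% were kept in 161 of 191 (84.3%), and 155 held both the first and the last intron of that transcript. Of the 191 isoforms, 80 had as many exons as that transcript, 65 fewer and 46 more. A single distinct event was counted in 73 isoforms, 2 events in 43, and 3 or more in 41. The other 34 had no event of their own: 11 of them held introns of a neighbouring gene, and the rest joined annotated introns in another combination or differed at an end. Isoforms with events can differ in these ways too, which the event count leaves out. With 1 event each, the GSL03 isoform had 69 exons against 43 and an isoform of AT2G17930 had 8 against 35.

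Across the new isoforms 219 distinct events were counted, of which 202 lay inside the gene, 10 upstream, 2 downstream and 5 across a gene end. Alternative acceptors numbered 82 (37.4%), retained introns 55 (25.1%), alternative donors 49 (22.4%), introns with both sites new 20 (9.13%), new pairings of annotated sites 8 (3.65%) and introns cut out of an annotated exon 5 (2.28%). By gene, an alternative acceptor inside the gene was present in 51 of 117 (43.6%), against 12.0% of all genes with 2 or more exons. A retained intron was present in 31 (26.5%) against 3.67%, and an alternative donor in 31 (26.5%) against 7.10%. A new pairing of annotated sites was present in 7 (5.98%) against 1.67%, an intron inside an annotated exon in 4 (3.42%) against 2.52%, and an intron with both sites new elsewhere in the gene in 6 (5.13%) against 0.949%. All these shares are per gene, and the long genes have a mean of 38.0 annotated introns each against 5.70 in the background.

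The acceptor moves were mostly short. Of the 74 acceptors that moved along an otherwise annotated intron, 52 moved downstream and 22 upstream, the median move was 8 nt, and 38 moved by at most 8 nt. The sizes seen most often were 4 nt downstream (8 acceptors), 3 nt upstream (6), and 7 and 8 nt downstream (5 each). In genes with 2 to 29 exons the median acceptor move was 11 nt over 2882 acceptors, 41.0% moved by at most 8 nt against 51.4% here (interval 39.4 to 63.1), and 69.7% moved downstream against 70.3%.

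In 37 of the 38 short moves, the annotated and the new acceptor are AG ends a few bases apart. This is no trait of short moves, since nearly all new introns of the long genes end in AG. Of the 164, 159 ran from GT to AG and 4 from GC to AG. Each line below gives 30 bases of RefSeq's TAIR10.1 sequence, 5′ to 3′ on the gene's strand, with the annotated and the new AG in capitals. In MOR1 (chr2:14971870-14971899, plus strand) and in ATM (chr3:17806108-17806137, plus strand) the new acceptor is the downstream one, by 3 and 4 nt. In DEK1 (chr1:20660104-20660133, minus strand), the membrane calpain needed to form the epidermis, it is 4 nt downstream, and in AT1G48090 (chr1:17755766-17755795, minus strand) 8 nt. In SYD (chr2:12059445-12059474, plus strand), a chromatin-remodelling ATPase, and in GSL10 (chr3:2275670-2275699, minus strand), a callose synthase, the new acceptor is the upstream one, by 3 and 6 nt.
MOR1: tatgttaacattttatAGcAGgcgagcaag
ATM: aaactgtattatttgcAGctAGatcgtggt
DEK1: tgtggttgttctttgcAGgaAGgacgattg
AT1G48090: caacaatatttgctctAGtaatccAGggca
SYD: tggatatatggcacatAGcAGatgaagagg
GSL10: actggtttttcgttgcAGtatgAGctcaaa
The upstream acceptors of SYD, seen in 3 of its 3 new isoforms, and of GSL10 are introns of the newer reference annotation. The downstream acceptors of MOR1, ATM, DEK1 and AT1G48090 are not. The exception among the 38 was in SWEETIE (AT1G67140), a repeat protein that affects sugar metabolism, where a new intron ended in CA, 3 nt past the annotated end and 1 nt short of the AG end that another new intron used.

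**Figure D3:**
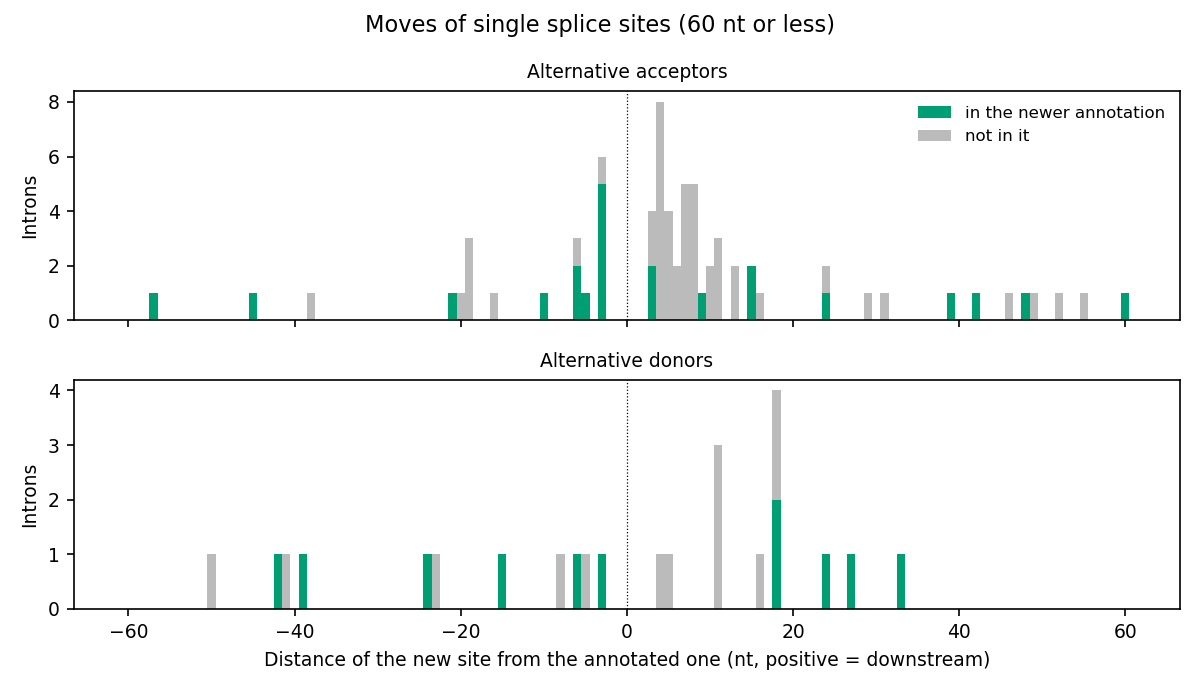
The bars count moved acceptors (upper panel) and donors (lower panel) of the genes with 30 or more exons by the distance of the new site from the annotated one in nucleotides, positive downstream, for moves of 60 nt or less. Green marks introns that the newer reference annotation also holds. New acceptors are most frequent 3 to 8 nt downstream of the annotated site, and the green ones lie mostly at multiples of 3.

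Donors moved farther. Of the 49 alternative donors, 29 moved along an annotated intron, 16 downstream and 13 upstream, with a median move of 18 nt, and 6 moved by at most 8 nt. A further 8 were the ends of a new first exon and 12 bounded a new internal exon. In genes with 2 to 29 exons 38.1% of 1298 moved donors lay downstream of the annotated one, against 55.2% here, with a wide interval of 35.7 to 73.6.

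A pattern shared between genes appeared in the myosins of class XI, motors that drive the streaming of organelles along actin. In XIB (AT1G04160), XID (AT2G33240) and XIH, the donor of intron 11 moved downstream by 11 nt, each time in 1 isoform. The sequence of the matching donor shows a second GT at that distance in 4 of the 12 myosin genes: those 3 and XIA (AT1G04600), in which no new isoform was assembled. The lines give 8 exon bases and 22 intron bases on the gene's strand, with the annotated GT and any GT 11 nt downstream in capitals, at chr1:1089487-1089516 (XIB), chr2:14094306-14094335 (XID), chr4:14175427-14175456 (XIH), chr1:1264854-1264883 (XIA) and chr2:8749242-8749271 (XIG).
XIB: acaaacagGTgcttaaccgGTatgcctgtt
XID: acaaacagGTgcttaaccgGTacgctacca
XIH: acaaacagGTgcttaagcgGTatgcctttt
XIA: acaaacagGTgcttaaccgGTatgcttttg
XIG: acaaacagGTgcgtaatccggtatgcctta
XIG (AT2G20290) has a similar sequence with the second GT at another distance, and none of its new introns starts there. The last 20 exon bases before the donor match those of XIB at 20 of 20 positions in XID and in XIA and at 19 of 20 in XIH. They match as closely in MYA2, at 20 of 20, and in XIG, at 19 of 20, and neither of these has a GT 11 nt downstream or an isoform with this move. Reads from near-identical copies can be placed on the wrong gene, and whether that touched these donors was not tested. The 11 nt shift the frame, and the newer annotation holds none of the 3 introns.

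Retained introns were short. The 55 retained introns, at 52 separate places in 31 genes, ran from 49 to 514 nt, with a median of 84 nt (95% interval 81 to 93) and quartiles of 79.5 and 118. The 1259 other introns of the same genes had a median of 101 nt (99 to 104) and quartiles of 86 and 174.5. Gene by gene the retained introns were shorter than the median of the rest in 18 genes and longer in 12. The longest were the adjoining introns 10 and 11 of AT5G27410, a D-amino acid aminotransferase-like enzyme, at 514 and 350 nt in the same isoform, intron 8 of the RNA helicase AT1G58060 at 352 nt and intron 14 of the helicase AT1G20720 at 343 nt.

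Of the retained introns whose effect could be read, 26 shifted the frame, 9 kept it but held an earlier stop codon, and 5 could be translated through. MOR1 intron 24 is of the middle kind and AT1G48090 intron 42 of the last. MOR1 intron 24 (chr2:14973631-14973702, plus strand) was retained in all 3 new isoforms and is 72 nt long, with in-frame stop codons in capitals. AT1G48090 intron 42 (chr1:17742357-17742437, minus strand) was retained in 3 of 5 isoforms and is 81 nt long, with no stop codon in frame and so no capitals.
MOR1 intron 24: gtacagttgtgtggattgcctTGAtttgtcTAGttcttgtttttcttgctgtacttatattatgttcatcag
AT1G48090 intron 42: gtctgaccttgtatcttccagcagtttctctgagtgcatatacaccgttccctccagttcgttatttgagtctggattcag
MOR1 had 4 retained introns, at 72, 94, 219 and 296 nt. The other introns that kept the frame open were of 75 and 84 nt in AT3G50380, 63 nt in the exportin AT3G04490 and 282 nt in AT1G20720.

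Whole exons were passed over by 10 new introns in 9 genes, and in 6 of the 10 the exons left out summed to a multiple of 3. AT1G48090 lost an exon of 66 nt in 4 of its 5 isoforms and a pair of exons summing to 57 nt in 2 of them. AT5G24740, a putative vacuolar sorting protein, lost 114 nt, the myosin XIG 45 nt, and AT2G17930, a giant kinase-like protein, an exon of 651 nt. XIB lost 137 nt and AT3G50380 94 nt, which shift the frame. In GMI1 an exon of 24 nt was left out in 4 of 5 isoforms, an omission that the newer annotation also holds. The exon is shown in capitals with the intron bases next to it (chr5:8258748-8258775, minus strand).
GMI1 exon left out: agTTTTGCCTTGCGACCATTTTCTTGgt

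New exons appeared inside annotated introns as well. There were 11 new internal exons in 7 genes, of 38 to 144 nt with a median of 79 nt, lying in introns with a median of 368 nt, and 10 of the 11 are exons of the newer annotation. EMB2771 (AT5G05560), a subunit of the ubiquitin ligase that drives the cell cycle past metaphase, held 5 of them, at 64, 93, 140, 79 and 99 nt. The following 3 genes, chosen after their values were seen, are those where the effect on the frame could be computed. AT3G04490 held a new exon of 144 nt in all 3 isoforms and AT5G53010, a calcium-transporting ATPase, one of 84 nt in 3 of 4 isoforms, both in frame with no earlier stop. GSL04 (AT3G14570), a callose synthase, held one of 57 nt in 1 of 2 isoforms, in frame with an earlier stop codon, and it is the one not in the newer annotation. The exons stand in capitals between the flanking intron bases, at chr3:1208142-1208289 (AT3G04490, plus strand), chr5:21492831-21492918 (AT5G53010, minus strand) and chr3:4895289-4895349 (GSL04, plus strand).
AT3G04490: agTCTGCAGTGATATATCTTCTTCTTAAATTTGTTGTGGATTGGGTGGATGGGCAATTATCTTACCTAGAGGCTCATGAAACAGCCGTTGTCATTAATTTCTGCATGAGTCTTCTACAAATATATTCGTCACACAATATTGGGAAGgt
AT5G53010: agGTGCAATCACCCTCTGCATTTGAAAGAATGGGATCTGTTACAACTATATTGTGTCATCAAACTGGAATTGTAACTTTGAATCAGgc
GSL04: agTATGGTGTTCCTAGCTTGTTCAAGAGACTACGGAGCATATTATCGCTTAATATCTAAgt
The exon of AT5G53010 is followed by GC in place of GT. Of all 164 new introns of the long genes, 4 ran from GC to AG and 159 (97.0%) from GT to AG. A further 7 genes had a new first exon inside an intron. The largest, 353 nt, lay in intron 6 of ACC2 (AT1G36180), an acetyl-CoA carboxylase of fatty acid synthesis, in an intron of 2512 nt. The others were in intron 1 of the chromatin remodeller PKL, the microtubule-associated AIR9, the starch enzyme PWD and the calcium pump ACA8, in intron 2 of ATM and in intron 8 of AT4G38760, a nucleoporin, where the piece was 4 nt long.

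In the 106 genes whose annotated transcript with the most exons has the same introns as a coding transcript of the newer annotation, 144 events lay inside the coding span. Over those that could be followed through, 82 shifted the reading frame, 12 kept it with an earlier stop codon and 36 kept both frame and stop. Among moved acceptors and donors in coding sequence, 27 of 78 (34.6%, interval 24.2 to 46.2) changed the message by a multiple of 3, against 34.2% over all genes with 2 or more exons. Acceptors alone gave 38 frame shifts, 1 earlier stop and 19 with the stop unchanged. New pairings of annotated sites gave 2 frame shifts and 6 with the stop unchanged. The sites of new exons were left out of these counts, because a pair of sites acts together.

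Along the gene the events were spread over all parts of the intron chain. When the introns of each transcript were split into 5 equal parts from the 5′ end, the 197 placed events fell as 42, 60, 31, 38 and 26, or 4.81, 6.87, 3.57, 4.35 and 2.98 per 100 introns. In 3552 genes with 11 to 29 exons the values were 7.20, 6.0, 5.59, 4.24 and 2.81 per 100 introns. The part nearest the 3′ end was lowest in both sets. The part nearest the 5′ end was highest in the genes with 11 to 29 exons, and the part after it in the long genes. Events of the part nearest the 5′ end stood in 30 genes and those of the part nearest the 3′ end in 18. The median intron length went from 108 nt in the part nearest the 5′ end to 97 nt in the part nearest the 3′ end.

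**Figure D4:**
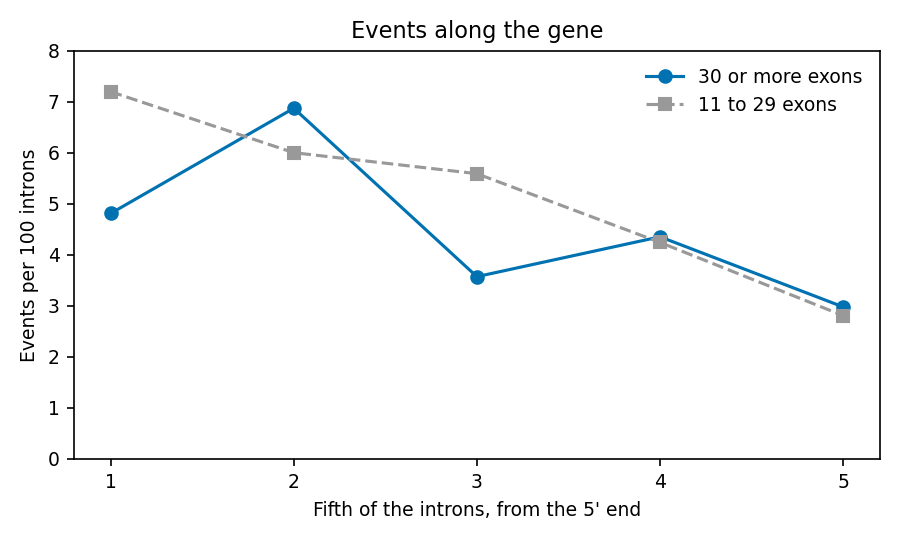
The lines plot splicing events per 100 annotated introns in 5 equal parts of the intron chain, counted from the 5′ end, for the genes with 30 or more exons (circles) and for genes with 11 to 29 exons (squares). The long genes peak in part 2 (6.87) and both sets are lowest in part 5 (2.98 and 2.81).

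The ends of the chain differed from each other. The 117 first introns, with a median of 173 nt, held 12 events in 11 genes, or 10.3 per 100 introns, of which 8 were alternative donors, 3 alternative acceptors and 0 retained introns (3 retained would make 2.56 per 100). Many of them lay 5′ of the coding sequence, such as the donors of CHR5, PKL, AIR9, PWD, NRPC2 and ACA8. Those of PKL, AIR9, PWD and ACA8 were the ends of new first exons inside intron 1, not moves of the annotated donor. The 117 last introns held 3 events, and all 3 were in EMB2771. Retained introns were spread evenly, with 10, 13, 11, 11 and 10 in the successive parts, while alternative donors numbered 15, 15, 4, 8 and 3 and alternative acceptors 14, 28, 15, 15 and 9. These donor and acceptor counts include sites that bound new exons.

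**Figure D5:**
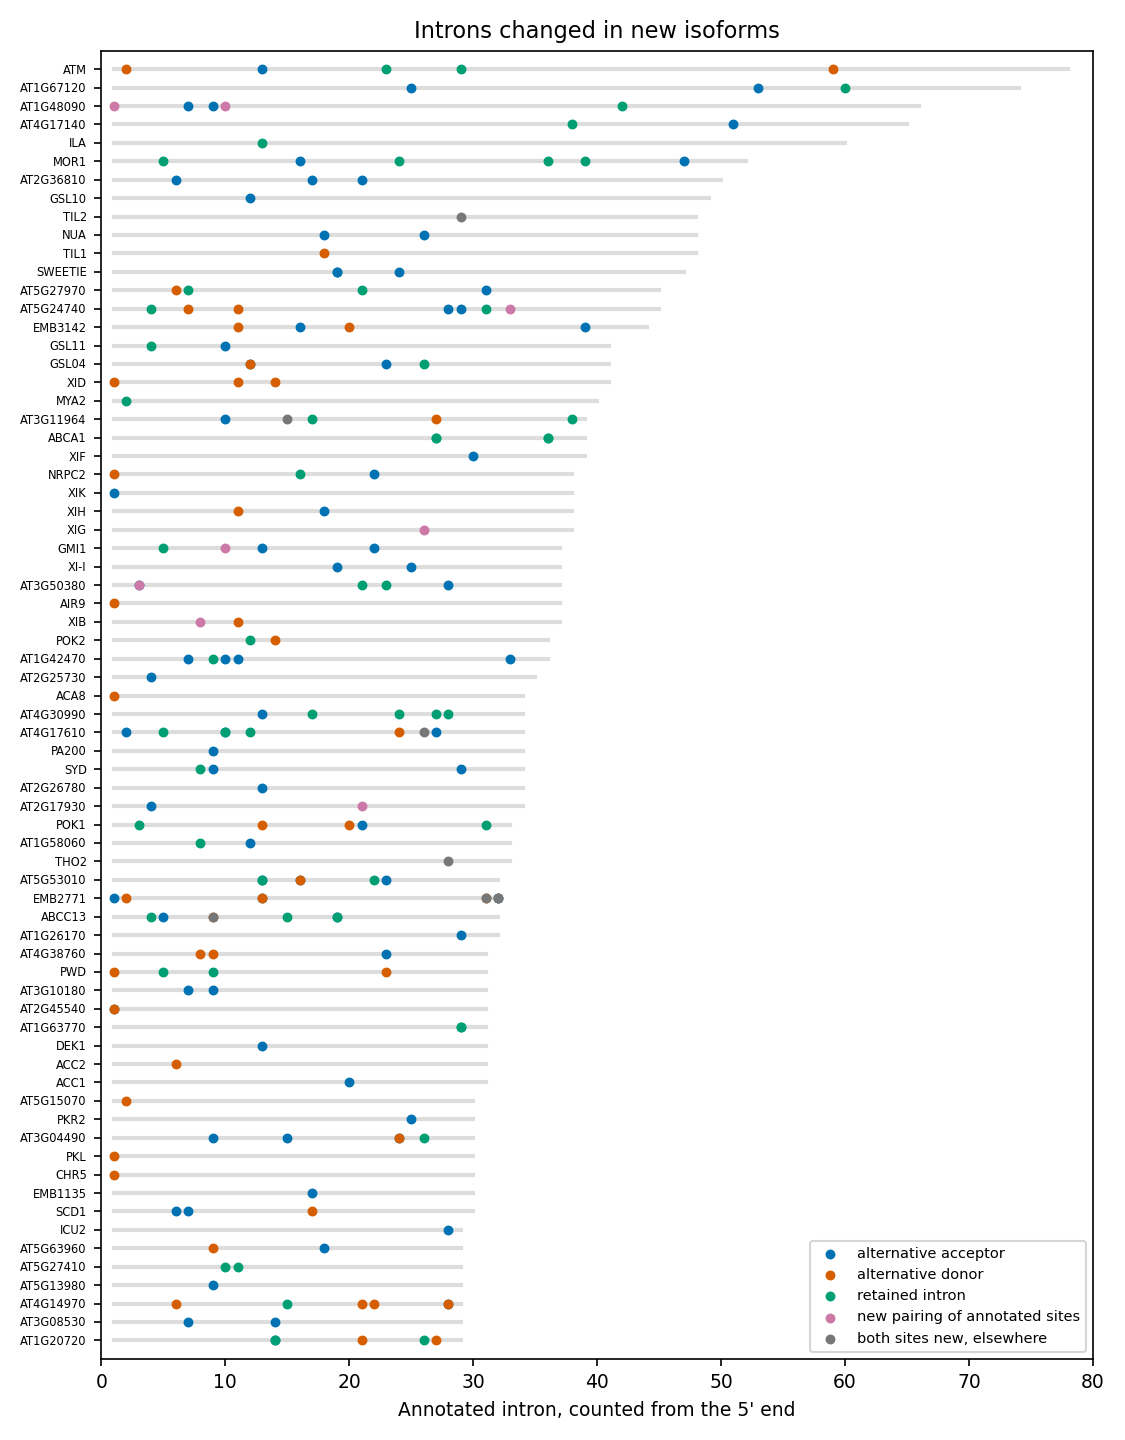
Each grey line is 1 of the 70 genes with a placed event, drawn to its number of introns and ordered by exon number, and each dot is an annotated intron changed in a new isoform, coloured by type, at its place counted from the 5′ end. Retained introns lie along the whole chain, and donors, some of them the ends of new first exons, are common at the left end.

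Introns and exons of these genes were about as long as those of genes with 11 to 29 exons. The median intron was 102 nt (95% interval 101 to 104), beside 112 nt in genes with 2 to 5 exons, 97 nt with 6 to 10, 97 nt with 11 to 20 and 101 nt with 21 to 29. The median exon was 112 nt, beside 267, 148, 114 and 109 nt in the same classes. The median gene length was 10460 bp and the median spliced length 5304 nt. Introns with a new splice site had higher medians. The 80 with a new acceptor had a median of 128.5 nt and the 45 with a new donor 248 nt. The other introns of those genes had a median of 102 nt in both cases. The introns with a new site include those that hold a new first or internal exon. The new internal exons lay in introns with a median of 368 nt. Of the 49 alternative donors, 29 were moved sites, and medians for moved sites alone were not computed.

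The groups by function given next are fixed lists and do not hold every long gene of that function. Over all 117 genes, 83 (70.9%) had new isoforms, with 4.54 events per 100 introns. The largest family was the 12 myosins, of which 8 had new isoforms, 25 in all, with 2.81 events per 100 introns. Of the 25, 12 were isoforms of MYA2 and XIH joined to a neighbouring gene, and without them 7 of the 12 myosins had 13. XIF (AT2G31900) had 2, with an acceptor moved 3 nt upstream in intron 30, XI-I had 2, XID 2 and XIK 1, and MYA1, XIA, XIC and XIE had none. The 10 callose synthases, which lay the glucan callose into cell plates, pollen walls and plasmodesmata, had 6 new isoforms in 5 genes and 1.62 events per 100 introns. GSL04 had 2 and CalS7, GSL03, GSL10 and GSL11 had 1 each, while CALS1, CALS5, GSL8, GSL09 and GSL12 had none. Those of CalS7 and GSL03 were joined to a neighbouring gene, which leaves 4 in 3 genes. The 5 listed genes of DNA synthesis and repair had 9 new isoforms, with at least 1 in each. AT4G14970, the homologue of the cross-link repair protein FANCD2, had 3, AT5G63960 (DNA polymerase delta) and ICU2 (polymerase alpha) had 2 each, and the DNA polymerase epsilon genes TIL1 and TIL2 had 1 each. Outside the list, the MutS homologue MSH5 (AT3G20475) had none, the DNA replication helicase emb2411 (AT1G08840) had 1 and GMI1 had 5.

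Of the 4 listed giant kinases and kinase-like proteins, ATM and AT2G17930 had 3 new isoforms each and TOR and AT4G36080 had none. Both kinesins that place the division plane had new isoforms, POK1 (AT3G17360) 3 and POK2 (AT3G19050) 1, and 3 of the 4 donor and acceptor moves in this pair kept the frame: 24 and 27 nt downstream in POK1 and 18 nt downstream in POK2. Of the 7 listed genes of membrane traffic and lipid transfer 5 had new isoforms, 15 in all, among them AT5G24740 with 4 and the clathrin heavy chain AT3G08530 with 2, while its partner gene AT3G11130 had none. AT3G50380, annotated with the same product as AT5G24740, was outside the list and had 5. Of the 4 listed genes of the nuclear pore and export, NUA and EMB3142 had 2 new isoforms each, XPO1B had 1 that was joined to a neighbouring gene, and its paralogue XPO1A had none. Outside the list, the nucleoporin AT4G38760 had 2 and the exportin AT3G04490 had 3. Of 4 metabolic genes, the carboxylases ACC1 and ACC2 had 1 each and the glutamate synthases GLU1 and GLU2 none.

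Smaller groups were represented by few genes. EMB2771 had 4 new isoforms with 35 to 38 exons, against 33 in the annotation, and the proteasome activator PA200 had 1. SYD had 3 and the transcription regulator RGD3 had 1, SWEETIE had 3, DEK1 had 2 and NRPC2, a core subunit of RNA polymerase III, had 2. The 59 genes in no list had new isoforms in 41 cases, 97 in all, with 4.93 events per 100 introns. Counts of new isoforms also depend on how much of a gene's RNA was sequenced, and levels were not analysed here, so its part in the differences between genes was not tested.

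Some new isoforms joined a long gene to its neighbour. Such transcripts held an intron of another annotated gene in 8 of the 117 genes (6.84%), against 3.18% of all genes with 2 or more exons, and numbered 18 of the 191 isoforms. As a share of new isoforms this was 9.42%, against 11.9% over all genes with 2 or more exons. The myosins MYA2 and XIH made up 12 of the 18. All 8 new isoforms of MYA2 began in the upstream gene AT5G43910 and had 51 or 52 exons against 41, and 4 of the 6 of XIH began in the upstream gene AT4G28706 and had 52 exons against 39. Both upstream genes encode pfkB-like carbohydrate kinases on the same strand. Their annotated transcripts already overlap those of the myosin, by 142 nt at MYA2 and 457 nt at XIH, and overlaps were present at 3 of the 8 joined pairs. A retained intron 2 of 206 nt was the single event of MYA2, in 4 of its 8 isoforms.

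The other 6 joined genes had 1 such isoform each. GSL03 was joined to AT2G31970, which encodes the repair protein RAD50, 261 bp downstream, in an isoform of 69 exons. XPO1B was joined to the ADP-ribosylation factor gene AT3G03120 over 59 bp and CalS7 to AT1G06500 over 69 bp, both downstream. AT1G63770 and AT3G04490 were joined to genes upstream. The protein translocase gene SECA2 was joined to AT1G21651, whose annotated transcripts already overlap those of SECA2 by 3411 nt. That isoform spans chr1:7592664-7604274, beside 7592664-7604229 for the annotated SECA2 gene.

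The 34 genes without a new isoform were not those with few exons. The median exon number was 35 both with and without new isoforms. Those with new isoforms had a median gene length of 10911 bp (95% interval 10180 to 12284) and those without of 9505 bp (8591 to 10837), and the median spliced lengths were 5616 and 4630 nt. The median of each gene's median intron was 101.5 nt with and 103 nt without. TOR had the most exons among genes without, followed by GSL8 (AT2G36850) with 50 and AT5G61140, named as a U5 small nuclear ribonucleoprotein helicase, with 49. Next were AT2G08986 with 46, CALS1 and GSL12 with 44, and XIA and the aldolase-family gene AT1G18270 with 42. An isoform that was not assembled may still be present in the tissue, since the depth is unknown.

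Many of the new structures are part of the newer reference annotation of the same genome. Of the 164 new introns of the long genes, 80 (48.8%, interval 40.9 to 56.7) are annotated introns there, against 25.2% of 7880 new introns in genes with fewer exons. In genes with 21 to 29 exons, 31.6% of 395 new introns are in the newer annotation. Introns seen in 2 or more isoforms were in it for 48 of 56 (85.7%) and introns seen in 1 isoform for 32 of 108 (29.6%), against 45.8% and 22.1% in genes with fewer exons. The frame of a move divided them further: 33 of the 42 moves by a multiple of 3 (78.6%) were in the newer annotation and 5 of the 61 other moves (8.20%), against 27.2% of 1484 and 11.6% of 2696 in genes with fewer exons. In 11 of the 117 genes no coding transcript of the newer annotation matched the reference transcript. These 11, with ATM, EMB2771, AT4G17610 and AT4G14970 among them, held 32 of the 80. Among the 106 matched genes 19 of 27 moves by a multiple of 3 (70.4%) and 3 of 53 other moves (5.66%) were in the newer annotation. What evidence the newer annotation was built from was not examined here.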

How the data were processed

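The authors deposited 1 merged set of transcript models, with exon positions and a code for the relation of each transcript to the annotation. CASAVA 1.8, TopHat2 and Cufflinks were used with TAIR10, per the submitters' processing notes, and for TopHat2 and Cufflinks the version and settings were not given in the sources used here. All libraries of the merge share 1 set, and 0 columns hold a value per library.

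A gene took its code from the annotated name of the transcript, or for assembled transcripts from the nearest annotated one. The annotated transcript with the most exons served as reference. Introns absent from the annotation were typed by which of their sites is annotated, and an annotated intron lying inside an exon of a new isoform, and inside no annotated exon, was called retained. Identical introns in several isoforms of a gene counted as 1 event. The classification was tested on simulated data and gave the right type for 200 of 200 genes.

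Coordinates are those of TAIR10, and the nuclear sequence of TAIR10.1 from RefSeq was used with its newer annotation: 32802 of 32806 shared genes overlapped on the same strand, and 99.6% of the 4451 introns are annotated in both. Gene names and products come from RefSeq. Reading frames were followed where a RefSeq transcript had the same introns as the reference transcript and its coding sequence read through (106 genes).

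Shares carry exact 95% binomial intervals and medians order-statistic intervals, in Python 3.11.15 with scipy 1.17.1. They cover counting over genes, introns or events. No test between groups was run. The genes and gene lists were chosen with earlier results of these data known. Named were the 10 genes with the most new isoforms, the 8 with the most exons, the 8 with the most exons and no new isoform, those with the 4 longest retained introns or the most exons passed over, and up to 4 genes with the most exons and 2 with the most isoforms of each list. Other genes were named after their values were seen.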

Additional observations from a re-analysis of the deposited data

How the results depend on the processing

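Of 73 values recomputed under another choice, 64 stayed within the interval of the reported value and 9 moved. Requiring 40 or more exons moved 8: the long genes then had 3.92 events per 100 introns, the other introns of genes with retained ones a median of 107 nt, genes with a new isoform medians of 47 exons, 13694 bp and 6206.5 nt spliced, and genes without one medians of 44 exons, 11734.5 bp and 5981 nt spliced. Leaving out the longest retained intron of each gene gave a retained median of 80 nt. These alternatives count fewer genes or introns by construction. Leaving out transcripts that hold an intron of another gene, using all annotated introns, requiring a new or retained intron, or limiting new introns to 60 to 2000 nt moved none of the values recomputed. No paired analysis was possible because the merged set has no values per library, and for the same reason no library could be left out. The depth, the libraries merged and the level of each gene are unknown, so a missing isoform is no sign of absence, and intervals do not describe plants.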

Other observations

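Closely related genes among the genes with 30 or more exons did not always have the same number of new isoforms. The clathrin heavy chains had 0 (AT3G11130) and 2 (AT3G08530), the exportins XPO1A and XPO1B 0 and 1, and the RNA helicases AT1G58050 and AT1G58060 0 and 2. The isoform of XPO1B has no splicing event within the gene and was counted because it joins AT3G03120. The ubiquitin proteases UBP12 and UBP13, which remove ubiquitin from proteins, both had 0, and the DNA polymerases TIL1 and TIL2 had 1 each. Among the calcium pumps, ACA9 and ACA10 and the endoplasmic reticulum pump ECA3 had 0, ACA8 had 1 and AT5G53010 had 4. The pairs were named after their values were seen, the level of each copy is not known, and no difference within a pair was tested.

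The annotation of the long genes changed between releases in 16 of their 4451 introns, which lie in 8 genes and are absent from the newer annotation. Of these introns 12 are overlapped by a new intron of the newer annotation, and all 8 genes had a new isoform here, beside 83 of all 117 (70.9%). Most of these 8 genes are among the 11 without a matched coding sequence, so the sets are not separate. Each of the 11 had a new isoform, and 10 of them had a new intron that the newer annotation holds.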
